A study of Mus musculus with 18 samples.

Results

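The lysosome is the compartment in which a cell digests what it takes in and what it discards. The genes described here are 36 of its enzymes, membrane proteins, proton pump subunits and transcription factors, chosen by name. All 36 were found by symbol among the 52636 genes of the count table. They comprise 6 membrane proteins and channels (*Lamp1*, *Lamp2*, *Scarb2*, *Npc1*, *Cln3*, *Mcoln1*), 8 proteases (*Ctsa*, *Ctsb*, *Ctsd*, *Ctsf*, *Ctsh*, *Ctsl*, *Ctsz*, *Tpp1*) and 9 glycan-degrading enzymes (*Gaa*, *Gla*, *Glb1*, *Gusb*, *Hexa*, *Man2b1*, *Neu1*, *Sgsh*, *Naglu*). The others are 7 lipid-handling enzymes and their helpers (*Npc2*, *Lipa*, *Psap*, *Ppt1*, *Asah1*, *Smpd1*, *Grn*), 4 proton pump subunits (*Atp6v0a1*, *Atp6v0d1*, *Atp6v1a*, *Atp6v1h*) and 2 transcription factors (*Tfeb*, *Tfe3*).

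Lysosomal hydrolases work in acid, which the proton pump (the vacuolar ATPase) makes by moving protons into the lumen, and most of them reach the lysosome by a mannose phosphate tag. The retinal pigment epithelium (RPE) engulfs the tips that photoreceptors shed, so its lysosomes carry an unusually heavy load of membrane, and cathepsin D is a main protease of that digestion. TFEB and its relative TFE3 switch on many lysosome genes together by binding a short DNA motif that contains CACGTG.

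The study asks how the cholesterol regulator SREBP2 and the endocytic receptor LRP2 act in the RPE on the size of the mouse eye. RNA was sequenced from 18 C57BL/6 mice on postnatal day 14, in 6 groups of 3 libraries, with both eyes of a mouse pooled in each library. Adeno-associated virus of serotype AAV8 was injected under the retina of newborn mice, and the *Best1* promoter restricts its cargo to the RPE. RPE cells were loosened with papain from eyecups without retina and optic nerve, so RNA of neighbouring cells can be present. The groups were uninjected mice and mice given AAV8-Best1 carrying GFP, the nuclear active form of SREBP2 (nSREBP2), a control hairpin (ctrl sh, which the labels name by LacZ), or a hairpin against *Lrp2* (*Lrp2* sh1 or *Lrp2* sh2). The hairpin vectors also carry the red protein mCherry. GFP is the control of nSREBP2, and ctrl sh is the control of both *Lrp2* hairpins.

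Depth ran from 8921885 counts (uninjected library 3) to 13696934 counts (ctrl sh library 1). Levels are normalised read counts (CPM, the counts of a gene as a share of the counts of its library, with TMM scaling over all 18 libraries), and the 36 genes had 121 to 22481 counts in a library, so each was measured well above zero everywhere. A gene rose or fell where the edgeR test of the 3 libraries of a group against the 3 of its control gave an adjusted *P* under 0.05 over all genes tested. The study itself used DESeq2 and also asked for an absolute log2 fold change (log2FC) above 1. Counts at that threshold stand beside the others and rest on the edgeR test. All 36 genes passed the filter on low counts in all 6 comparisons made here. Errors of log2FC are SE with n = 3 libraries a group, and values for a group's libraries are given in the order of library 1, 2 and 3.

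The RPE label was checked against its markers. *Rpe65*, the defining enzyme of the RPE visual cycle, had 376, 956 and 1127 CPM in the uninjected libraries. It had 2.29, 1.06 and 1.58 CPM with GFP, 3.72, 2.46 and 3.18 with nSREBP2, 96.99, 2.57 and 1.78 with ctrl sh, 3.57, 44.02 and 5.20 with *Lrp2* sh1 and 3.49, 5.46 and 15.6 with *Lrp2* sh2. Every injected library was thus far below every uninjected one for this marker. Summed over 10 RPE markers, of which the pigment gene *Pmel* was the most abundant, the levels were 4526, 8279.6 and 9146 CPM in the uninjected libraries. The sums were 3518, 3656 and 3605 CPM with GFP, 4121, 3835 and 3115 with nSREBP2, 6649, 4771 and 4827 with ctrl sh, 4155, 4512 and 4479 with *Lrp2* sh1 and 3129, 2985 and 3182 with *Lrp2* sh2. *Pmel* itself had a log2FC of -0.05 ± 0.14 with GFP against uninjected eyes, where *Rpe65* had -8.95 ± 0.52. The sum thus understates the change of *Rpe65*. Uninjected library 1 stood apart from the other uninjected libraries by its low RPE markers. In bulk samples, fewer cells of a type and less RNA per cell cannot be told apart.

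Sex was not balanced. Counts of Y-linked genes, 2770 to 3630 a library, were found in all 3 nSREBP2 libraries, uninjected library 3 and *Lrp2* sh2 libraries 2 and 3, and the other 12 libraries had 0 to 10. Between nSREBP2 and GFP, sex and vector therefore cannot be told apart from those 6 libraries alone. A fit of all 18 libraries with sex as a term draws on the 2 groups that hold both sexes. It is given below where it changes a call of a lysosome gene chosen by name. For the manipulated genes, the cell type markers and the other genes of the lysosome and autophagy system, no such fit is given. The part of sex in the calls of those genes was not tested.

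The manipulated genes were examined first. *Srebf2*, the gene of SREBP2, had 82.9, 112 and 107 CPM in the GFP libraries and 233, 209 and 208 in the nSREBP2 libraries, a log2FC of 1.10 ± 0.11 (adjusted *P* = 0.000121). All 7 reference targets of SREBP2 rose with nSREBP2, by log2FC 1.07 (*Hmgcs1*) to 2.55 (*Idi1*). *Lrp2* had 175, 159 and 87.8 CPM with GFP and 37.7, 30.02 and 25.2 with nSREBP2, a log2FC of -2.18 ± 0.24 (adjusted *P* = 0.000233). Against 166, 87.6 and 100.4 CPM with ctrl sh, *Lrp2* had 29.8, 42.8 and 38.3 with *Lrp2* sh1 (log2FC -1.68 ± 0.22, adjusted *P* = 0.00328) and 37.5, 34.6 and 43.6 with *Lrp2* sh2 (log2FC -1.60 ± 0.21, adjusted *P* = 0.00109). The data thus carry the labelled changes, and for *Lrp2* the levels of the hairpin groups overlap each other (log2FC 0.08 ± 0.13 for sh2 against sh1, adjusted *P* = 0.728).

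Levels of different genes can be compared only per length, here as CPM per kilobase of exon in the uninjected libraries (mean ± SD, n = 3). The length counts all annotated exons of a gene, merged. It can exceed that of the transcripts present, which lowers the value, so ranks between genes are approximate. *Psap*, whose protein is cut into the saposins that help degrade sphingolipids, was the most abundant at 464 ± 102, followed by *Ctsd* at 170.0 ± 55.01. *Lamp1*, a coat glycoprotein of the lysosomal membrane, had 99.6 ± 9.63, *Ctsb* 82.6 ± 9.55 and *Ctsz* 73.2 ± 6.72, and the SD ranges of neighbours among these 3 overlap. The lowest were the calcium channel gene *Mcoln1* at 5.18 ± 0.815 and *Cln3*, whose loss causes a childhood storage disease, at 2.84 ± 0.476. *Psap* had 951, 1395 and 1470.5 CPM in the 3 uninjected libraries, the lowest in library 1. The summed level of all 36 genes was 5042, 6359 and 6531 CPM in the uninjected libraries and 5900.5, 6243 and 5753 with GFP. The sums were 8524, 7448 and 7177 CPM with nSREBP2, 7919, 7366 and 7731 with ctrl sh, 8756, 8783 and 8951 with *Lrp2* sh1 and 7215, 6617 and 7025 with *Lrp2* sh2. The 3 *Lrp2* sh1 libraries were the highest of all 18, and uninjected library 1 was the lowest. By group mean, 15 of the 36 genes were highest with *Lrp2* sh1, 14 with nSREBP2, 4 with *Lrp2* sh2 and 3 with ctrl sh. The uninjected group had the lowest mean for 17 of them. These ranks of means were not tested, and the same counts over all genes were not made.

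**Figure D1:**
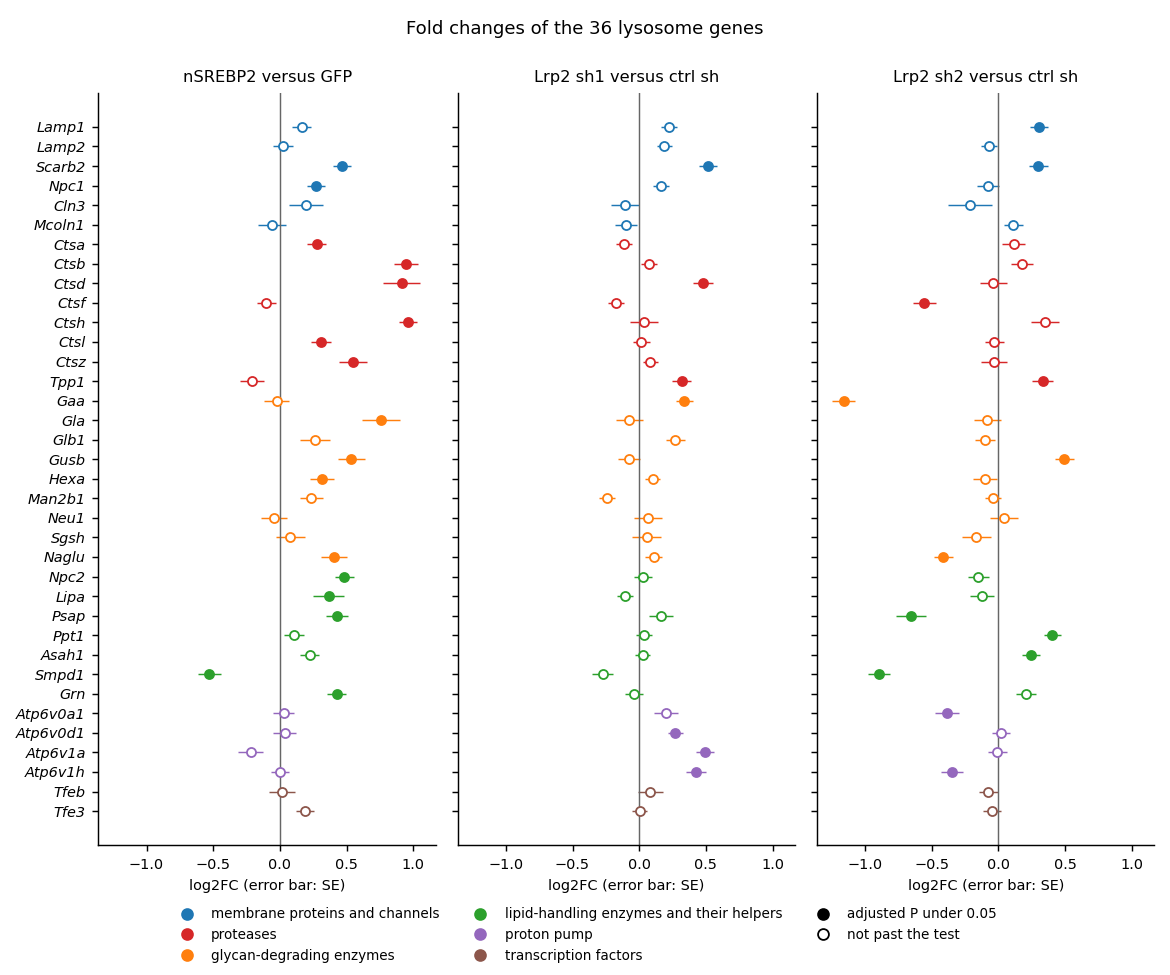
Each point is the log2FC of a gene (x axis, error bar SE, n = 3 libraries a group) in the comparison named above the panel, with genes ordered and coloured by role and filled where the adjusted P was under 0.05. With nSREBP2 most filled points are proteases, glycan and lipid enzymes to the right of 0, with Lrp2 sh1 3 of the 7 filled points are proton pump genes, and with Lrp2 sh2 filled points lie on both sides.

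With nSREBP2, 6 of 8 lysosomal proteases rose against GFP (4 of 8 in the fit with sex as a term). None of the 4 proton pump subunits among the 36 genes passed the test, which does not set so small a group apart from all genes. Of 18 other proton pump genes tested, 3 rose. *Ctsh*, *Ctsb* and *Ctsd*, all cathepsins that cut proteins in the lysosome, rose the most, though *Ctsd* did not pass with sex as a term (0.60). *Smpd1*, the acid sphingomyelinase, fell. In all, 16 of 36 genes rose (12.6% of the 17927 genes tested rose) and 1 fell (8.47% of all genes). With sex as a term, 10 of these 17 calls stayed, that of *Smpd1* among them. None of the 36 passed the threshold of the study, which 6.67% of all genes did. The median log2FC was 0.23 for the 36 genes and -0.02 for all genes.

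The proteases had the most changes, with 6 of 8 rising. *Ctsh*, an aminopeptidase, had 60.00, 65.97 and 62.03 CPM with GFP and 127, 118 and 121 with nSREBP2 (log2FC 0.96 ± 0.07, adjusted *P* = 1.7e-05). *Ctsb*, a cysteine protease, had 484, 506 and 493 CPM with GFP and 1093, 897 and 872 with nSREBP2 (log2FC 0.95 ± 0.09, adjusted *P* = 1.0e-04). Each nSREBP2 library was far above every GFP library for both, with little spread among the GFP mice. *Ctsd*, the aspartic protease of outer segment digestion, had 416, 431 and 338 CPM with GFP and 907, 715 and 609 with nSREBP2 (log2FC 0.91 ± 0.14, adjusted *P* = 0.00166). Its nSREBP2 libraries were all higher than its GFP libraries but differed among themselves, library 1 being the highest. *Ctsz*, a carboxypeptidase, rose by 0.55, *Ctsl* by 0.31 and *Ctsa*, which also shields other lysosomal enzymes from breakdown, by 0.28. *Ctsf* (-0.10 ± 0.07) and the tripeptide-removing *Tpp1* (-0.21 ± 0.09) did not pass. The exons of *Ctsb* share 774 bases with *Fdft1* on the opposite strand, and the strand use in counting is not stated. *Fdft1*, an SREBP2 target, itself had 15.02, 18.2 and 15.7 CPM with GFP and 66.9, 55.9 and 56.2 with nSREBP2, and the part of shared reads in the change of *Ctsb* was not tested. *Ctsd* shares 808 bases with the annotated gene *Gm49369* on the same strand, so its level is less certain than that of a gene without overlap. Other genes that rose also overlap: *Ctsl* shares 395 bases on the same and 1742 on the opposite strand, and on the opposite strand *Ctsa* shares 819, *Npc1* 601, *Hexa* 255, *Grn* 68 and *Ctsz* 10.

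Among glycan-degrading enzymes, 4 of 9 rose, though *Hexa* did not pass with sex as a term (0.42). *Gla*, which takes galactose off lipids, rose by 0.76 ± 0.15, and *Hexa*, which trims gangliosides, by 0.31 ± 0.09. *Gusb*, which removes glucuronic acid from long sugar chains, had 47.6, 50.6 and 57.8 CPM with GFP and 81.9, 78.8 and 65.6 with nSREBP2 (log2FC 0.54 ± 0.10, adjusted *P* = 0.00481). *Naglu*, an enzyme of heparan sulfate breakdown, had 45.1, 47.5 and 46.97 CPM with GFP and 70.3, 61.4 and 53.5 with nSREBP2 (log2FC 0.41 ± 0.10, adjusted *P* = 0.0141). The groups did not overlap for either gene, but nSREBP2 library 3 was the nearest to the GFP range for both. The glycogen-degrading *Gaa* did not pass (-0.02 ± 0.10), with 225, 260.0 and 219 CPM with GFP and 257, 228 and 207 with nSREBP2.

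Of the lipid group, 4 of 7 rose and *Smpd1* fell. With sex as a term, *Grn* and *Smpd1* still passed, and *Psap* (0.40), *Npc2* (0.32) and *Lipa* (0.40) did not. *Psap* had 951, 1027 and 941 CPM with GFP and 1446, 1261 and 1217 with nSREBP2 (log2FC 0.43 ± 0.08, adjusted *P* = 0.00548). *Smpd1* had 135, 148 and 122 CPM with GFP and 99.6, 95.4 and 85.9 with nSREBP2 (log2FC -0.53 ± 0.09, adjusted *P* = 0.00229). The nSREBP2 libraries were thus all above GFP for the saposin precursor and all below it for the sphingomyelinase. *Npc2*, which hands cholesterol inside the lysosome to the membrane protein NPC1, rose by 0.48 ± 0.07, *Grn* (progranulin) by 0.43 ± 0.07 and *Lipa*, which frees cholesterol from its esters, by 0.36 ± 0.11. *Ppt1*, which removes fatty acids from proteins, had 0.11 ± 0.07 and the ceramidase *Asah1* 0.22 ± 0.07, and neither passed.

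Among membrane genes 2 of 6 rose, though *Npc1* did not pass with sex as a term (0.28). *Scarb2*, a sorting receptor of the lysosomal membrane, had 272, 263 and 275 CPM with GFP and 395, 359 and 364 with nSREBP2 (log2FC 0.47 ± 0.06, adjusted *P* = 0.000886), with no overlap. *Npc1*, which moves cholesterol out of the lysosome, rose by 0.27 ± 0.07. The 4 proton pump genes had log2FC from -0.22 (*Atp6v1a*, the catalytic subunit) to 0.04 (*Atp6v0d1*, of the membrane sector). Of the 4, 1 was at an unadjusted *P* under 0.05 in edgeR (33.3% of all genes were). DESeq2 called none of them, where it called 10.1% of all genes higher and 5.77% lower. *Tfeb* had 0.02 ± 0.10 and *Tfe3* 0.19 ± 0.07. Over the 19 genes that did not pass, log2FC ran from -0.22 to 0.26 (*Glb1*, a galactosidase).

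Markers of other cell types moved in the same libraries. Of 14 macrophage and microglia markers, 13 rose with nSREBP2 (all but *Mrc1*), and their summed level was 490.2, 518 and 572 CPM with GFP and 1267, 1099 and 1109 with nSREBP2. *Csf1r* was the most abundant of them over all libraries, and *Lyz2* went from 58.05, 65.1 and 63.7 to 463, 339 and 338 CPM (log2FC 2.61). All 6 fibroblast markers rose as well, from 34252, 38715 and 43762 to 85260.2, 71392 and 79163 CPM in sum, with *Col1a1* the most abundant. None of these 20 markers was at 0 in any library. Of the RPE markers 2 rose and 3 fell, and 1 of 8 rod markers rose. All 8 rod markers had a positive log2FC (median 1.22), 4 of them at an unadjusted *P* under 0.05 in edgeR (33.3% of all genes). Of the endothelial markers 3 of 6 fell, and of the choroidal melanocyte markers 2 of 6. None of 4 blood markers was past the edgeR test (1 at an unadjusted *P* under 0.05). Macrophages and fibroblasts express lysosomal hydrolases too, and the part of these cells in the result was not tested.

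The wider lysosome and autophagy system was read from 6 lists with 141 other genes, of which 137 were tested and 31 rose and 7 fell with nSREBP2 (12.6% and 8.47% of all genes). Other hydrolases and activators had 12 of 31 rising and 1 falling, with the largest rises in *Acp5* (2.46 ± 0.24), the acid phosphatase typical of osteoclasts and some macrophages, and *Ctss* (2.31 ± 0.10), a protease of antigen-presenting cells, and a fall in the hyaluronidase *Hyal1* (-0.61 ± 0.11). *Ctss* had 24.6, 29.3 and 31.2 CPM with GFP and 151, 133 and 138 with nSREBP2. Other proton pump genes had 3 of 18 rising, among them *Atp6v0d2* (4.69 ± 0.25), a subunit known from osteoclasts and macrophages, and *Atp6v0a4* (1.11 ± 0.18), a subunit known from kidney. *Atp6v0d2* went from 0.424, 0.440 and 0.602 to 15.3, 11.6 and 12.1 CPM. Other membrane proteins had 7 of 26 rising and 2 falling: past a log2FC of 1 were *Cd68* (1.66), which is also among the macrophage markers, *Mcoln2* (1.64), *Slc15a3* (1.42) and *Laptm5* (1.26), while *Laptm4b* had the largest fall (-0.41). Mannose 6-phosphate tagging and delivery had 3 of 20 rising (*Ap1s1* the most, 0.42) and *Sort1*, a sorting receptor, falling (-0.29). Relatives of TFEB and controls of mTORC1 had 2 of 20 rising (*Fnip2* the most, 0.28) and *Rragd* falling (-0.68). Autophagy genes had 4 of 22 rising and 2 falling, with *Cybb*, an oxidase subunit of phagocytes, at 1.06 and *Map1lc3a* at -0.39.

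The fit with sex as a term left 10 of the 17 calls with nSREBP2 (9 up, 1 down). No longer past the test were *Ctsd* (log2FC 0.60), *Npc2* (0.32), *Psap* (0.40), *Ctsa* (0.40), *Hexa* (0.42), *Npc1* (0.28) and *Lipa* (0.40). Each fit without 1 library has fewer samples, and 11 of the 17 calls were made in all 6 such fits, those of *Ctsh*, *Ctsb*, *Ctsd*, *Gla*, *Ctsz*, *Gusb*, *Npc2*, *Scarb2*, *Psap*, *Grn* and *Smpd1*. Values in brackets are log2FC in the fit named. Without GFP library 1, 11 genes passed, no longer among them *Ctsa* (0.28), *Hexa* (0.26), *Naglu* (0.38), *Ctsl* (0.27), *Npc1* (0.26) and *Lipa* (0.31). Without GFP library 2, 14 genes passed, no longer among them *Ctsa* (0.30), *Hexa* (0.36) and *Ctsl* (0.32). Without GFP library 3, 17 genes passed, no longer among them *Hexa* (0.31) and *Lipa* (0.32), with *Tpp1* (-0.28) and *Atp6v1a* (-0.31) added. Without nSREBP2 library 1, 12 genes passed, no longer among them *Ctsa* (0.26), *Hexa* (0.22), *Ctsl* (0.24), *Npc1* (0.23) and *Lipa* (0.25). Without nSREBP2 library 2, 16 genes passed, no longer among them *Ctsa* (0.24) and *Hexa* (0.33), with *Asah1* (0.28) added. Without nSREBP2 library 3, 18 genes passed, with *Man2b1* (0.33) added.

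**Figure D2:**
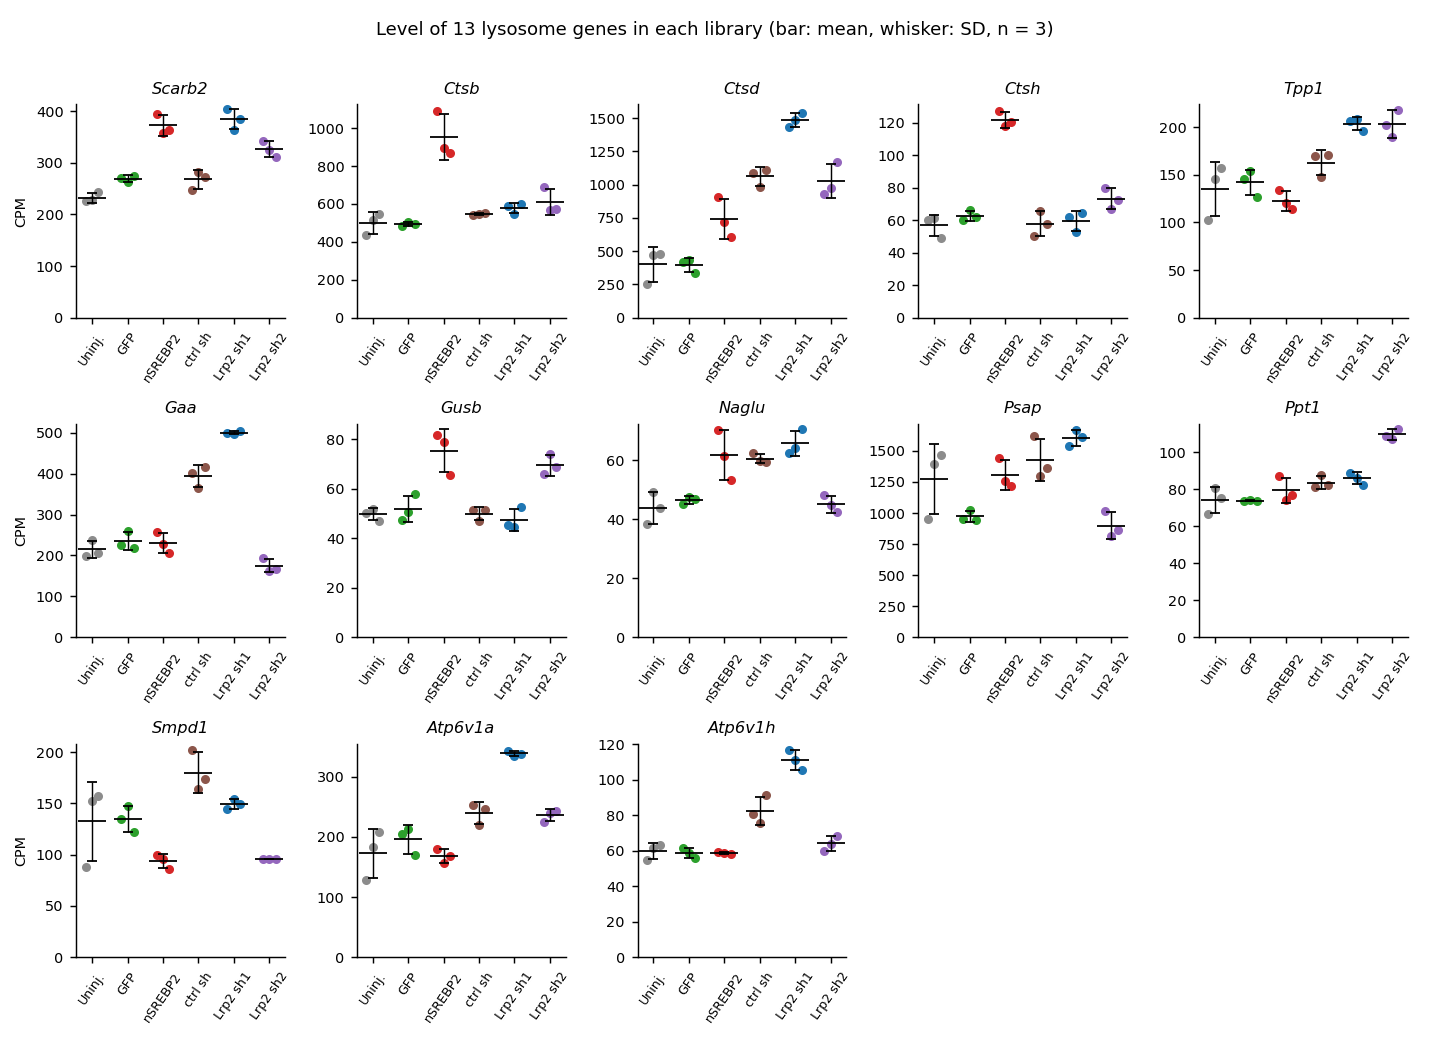
Level in CPM (y axis, from 0) of 13 lysosome genes in each of the 18 libraries, 3 points a group, with the mean (bar) and SD (whisker), where Uninj. stands for uninjected. Ctsb and Ctsh are highest in the nSREBP2 libraries, Gaa and Atp6v1h are highest with Lrp2 sh1, and the mean of Smpd1 is lowest with nSREBP2 and Lrp2 sh2.

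With *Lrp2* sh1, 3 of the 4 proton pump subunits were higher than with ctrl sh, of which *Atp6v0d1* passed in only 1 of the 6 fits without 1 library. *Scarb2*, *Ctsd*, *Tpp1* and *Gaa* rose as well, and no gene of the 36 fell. In these 6 fits the call of *Tpp1* was lost in 5, that of *Gaa* in 3 and that of *Atp6v1h* in 2. In all 7 rose, where 3.06% of the 17801 genes tested rose, and 0 fell, where 2.28% of all genes fell. At an unadjusted *P* under 0.05 edgeR had 15 of the 36, in either direction (19.7% of all genes), and DESeq2 called 8 up (3.80% of all genes) and 2 down, *Smpd1* and *Man2b1* (2.83%). Without the filter on low counts edgeR also called *Smpd1* (-0.27) and *Man2b1* (-0.23) lower, and with the stricter filter *Man2b1* (-0.24). None passed the threshold of the study (0.994% of all genes). The median log2FC was 0.07 for the 36 genes and -0.01 for all genes.

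*Atp6v1a*, the catalytic subunit that splits ATP, had 253, 219 and 246 CPM with ctrl sh and 344, 335 and 339 with *Lrp2* sh1 (log2FC 0.49 ± 0.07, adjusted *P* = 0.00324). *Atp6v1h*, which regulates that cytosolic sector, had 80.4, 75.6 and 91.1 CPM with ctrl sh and 117, 111 and 105 with *Lrp2* sh1 (log2FC 0.43 ± 0.08, adjusted *P* = 0.0138). All *Lrp2* sh1 libraries were above all ctrl sh libraries for both subunits. *Atp6v0d1* rose by 0.27 ± 0.06, and *Atp6v0a1*, which anchors the pump in the membrane, had 0.20 ± 0.09 and did not pass. Summed over the 4 subunits, the level was 663, 575 and 617 CPM with ctrl sh and 789.5, 805 and 797 with *Lrp2* sh1, against 385, 514 and 553 in uninjected libraries.

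*Scarb2* had the largest rise, from 248, 283 and 273 CPM with ctrl sh to 404, 365 and 386 with *Lrp2* sh1 (log2FC 0.52 ± 0.07, adjusted *P* = 0.00324). *Ctsd* had 1091, 982 and 1112 CPM with ctrl sh and 1433, 1483 and 1538 with *Lrp2* sh1 (log2FC 0.48 ± 0.07, adjusted *P* = 0.00598). The *Lrp2* sh1 libraries held the highest *Ctsd* levels of all 18. *Gaa* had 401, 364 and 416 CPM with ctrl sh and 500.1, 497 and 503 with *Lrp2* sh1 (log2FC 0.34 ± 0.06, adjusted *P* = 0.0172). *Tpp1* had 170.4, 148 and 171 CPM with ctrl sh and 207, 209 and 196 with *Lrp2* sh1 (log2FC 0.32 ± 0.07, adjusted *P* = 0.0307). Neither gene's groups overlapped, and the *Gaa* values of the *Lrp2* sh1 libraries lay within a few CPM of each other. None of the 7 lipid-handling genes passed (log2FC -0.27 for *Smpd1* to 0.17 for *Psap*), nor did the cathepsins that rose the most with nSREBP2 (*Ctsb* 0.08 ± 0.06, *Ctsh* 0.04 ± 0.11). *Tfeb* had 0.08 ± 0.10 and *Tfe3* 0.00 ± 0.06. The 29 genes that did not pass had log2FC from -0.27 (*Smpd1*) to 0.27 (*Glb1*).

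Few marker genes passed the test here. Of 14 macrophage markers none rose and *Csf1r* fell (-0.30), with sums of 503, 532 and 519 CPM with ctrl sh and 464, 449.5 and 481 with *Lrp2* sh1. No fibroblast marker passed (32798, 46119 and 46837 and 44424, 53409 and 51031 CPM), and no rod, endothelial, melanocyte or blood marker did. Of 10 RPE markers only *Mitf*, a relative of *Tfeb*, passed, with a fall (-0.54 ± 0.06). At an unadjusted *P* under 0.05, edgeR had 4 macrophage, 1 fibroblast, 4 RPE, 4 melanocyte and 4 blood markers and no rod or endothelial one. The fibroblast marker was higher and the others were lower. The part of these cells in the result was not tested.

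Of 135 other genes of the system that were tested, 16 rose and 1, *Mitf*, fell with *Lrp2* sh1 (3.06% and 2.28% of all genes). Other pump genes had 3 of 17 rising (*Atp6v1b2* the most, 0.36), and other hydrolases 5 of 31 (*Aga*, which detaches sugars from asparagine, 0.68). Other membrane proteins had 3 of 25 rising (*Ostm1*, partner of a chloride exchanger, 0.66), delivery genes 1 of 20 (*Igf2r*, the large receptor of the mannose 6-phosphate tag, 0.29) and controls of mTORC1 1 of 20 (*Rraga* 0.27). Autophagy genes had 3 of 22 rising, with the cargo receptor *Sqstm1* at 0.54.

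*Scarb2*, *Atp6v1a* and *Ctsd* passed in all 6 fits without 1 library, which have fewer samples, and the other 4 did not. Without ctrl sh library 1, 10 genes passed, with *Man2b1* (-0.24), *Glb1* (0.30) and *Atp6v0a1* (0.31) added. Without ctrl sh library 2, 5 genes passed, no longer among them *Tpp1* (0.25) and *Atp6v0d1* (0.29). Without ctrl sh library 3, 5 genes passed, no longer among them *Tpp1* (0.35) and *Atp6v0d1* (0.24). Without *Lrp2* sh1 library 1, 3 genes passed, no longer among them *Atp6v1h* (0.39), *Tpp1* (0.31), *Atp6v0d1* (0.30) and *Gaa* (0.34). Without *Lrp2* sh1 library 2, 3 genes passed, no longer among them *Atp6v1h* (0.43), *Tpp1* (0.30), *Atp6v0d1* (0.27) and *Gaa* (0.34). Without *Lrp2* sh1 library 3, 4 genes passed, no longer among them *Tpp1* (0.35), *Atp6v0d1* (0.25) and *Gaa* (0.34). The fits of all 18 libraries left out *Ctsd* (0.48) and *Tpp1* (0.32), and with sex as a term also *Atp6v0d1* (0.27), giving 5 and 4 calls.

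With *Lrp2* sh2, lysosome genes went both ways against ctrl sh. *Gaa*, *Smpd1* and *Psap* fell the most, and *Gusb*, *Ppt1* and *Tpp1* rose the most. *Tpp1* did not pass with sex as a term (0.21) or in 3 of the 6 fits without 1 library. In all 6 of the 36 genes rose, where 8.59% of the 18089 genes tested rose, and 7 fell, where 9.48% of all genes fell. *Gaa* alone passed the threshold of the study, which 4.76% of all genes passed. The median log2FC was -0.05 for the 36 genes and 0.01 for all genes. This comparison shares its ctrl sh libraries with the one above, so the results are not independent of each other.

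*Gaa* had 401, 364 and 416 CPM with ctrl sh and 193, 163 and 167 with *Lrp2* sh2 (log2FC -1.16 ± 0.08, adjusted *P* = 6.3e-05). The *Lrp2* sh2 libraries thus lay below the uninjected libraries (199.5, 238 and 207 CPM) and the ctrl sh libraries above them. *Smpd1* had 202, 164 and 173 CPM with ctrl sh and 95.6, 95.6 and 95.6 with *Lrp2* sh2 (log2FC -0.90 ± 0.08, adjusted *P* = 0.00018). *Psap* had 1618, 1302 and 1362 CPM with ctrl sh and 1020.0, 812 and 865 with *Lrp2* sh2 (log2FC -0.65 ± 0.11, adjusted *P* = 0.00407). For both genes every *Lrp2* sh2 library was below every ctrl sh library. *Naglu* had 62.5, 59.8 and 59.5 CPM with ctrl sh and 48.2, 44.7 and 42.3 with *Lrp2* sh2 (log2FC -0.41 ± 0.07, adjusted *P* = 0.00423). The *Lrp2* sh2 libraries were again all lower, and the protease gene *Ctsf* fell too (log2FC -0.56 ± 0.08).

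In the pump, *Atp6v1h* had 80.4, 75.6 and 91.1 CPM with ctrl sh and 59.9, 63.96 and 68.3 with *Lrp2* sh2 (log2FC -0.35 ± 0.08, adjusted *P* = 0.0192). Every *Lrp2* sh2 library was below every ctrl sh library. *Atp6v0a1* fell as well (log2FC -0.39 ± 0.09), and *Atp6v0d1* (0.02 ± 0.07) and *Atp6v1a* (-0.01 ± 0.07) did not pass. *Atp6v1a* had 224, 240.3 and 243 CPM with *Lrp2* sh2, inside the ctrl sh range.

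Among the genes that rose, *Gusb* had 51.5, 46.9 and 51.4 CPM with ctrl sh and 65.98, 74.3 and 68.7 with *Lrp2* sh2 (log2FC 0.49 ± 0.07, adjusted *P* = 0.00187). *Ppt1* had 81.2, 87.4 and 82.1 CPM with ctrl sh and 109, 107 and 113 with *Lrp2* sh2 (log2FC 0.40 ± 0.06, adjusted *P* = 0.00255). The *Lrp2* sh2 libraries were the highest of all 18 for *Ppt1*. *Tpp1* had 202, 189.5 and 218 CPM with *Lrp2* sh2 (log2FC 0.33 ± 0.08, adjusted *P* = 0.0192) and *Scarb2* 343, 325 and 311 CPM (log2FC 0.30 ± 0.07, adjusted *P* = 0.021), each above its ctrl sh libraries. *Lamp1* rose by 0.31 ± 0.07 and *Asah1* by 0.24 ± 0.07. *Ctsd* overlapped the ctrl sh libraries, with 926, 978 and 1169 CPM (log2FC -0.04 ± 0.10), and *Ctsb* (0.18 ± 0.09) and *Ctsh* (0.35 ± 0.11) did not pass. DESeq2 did call *Ctsh* higher (0.34), as did edgeR with the size factors of DESeq2 (0.35). It was also called without the filter on low counts (0.34), with the stricter filter (0.35) and in the fit of all 18 libraries (0.34). *Tfeb* had -0.08 ± 0.07 and *Tfe3* -0.05 ± 0.07. The 23 genes that did not pass had log2FC from -0.22 (*Cln3*) to 0.35 (*Ctsh*).

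Of 8 rod markers 6 rose with *Lrp2* sh2, while *Rom1* (-0.94 ± 0.33) and *Gnat1* (2.56 ± 0.92) did not pass. Library 1 stood well above the others: *Nrl* had 0.288, 2.03 and 0.930 CPM with ctrl sh and 13.4, 2.19 and 7.48 with *Lrp2* sh2. Macrophage markers had 2 of 14 rising (*Ptprc* and *Cx3cr1*), with a sum of 791, 591 and 571 CPM, and library 1 was the highest. Fibroblast markers had 2 of 6 rising (sum 43962, 50610.4 and 41974 CPM, mostly *Col1a1*). Falls were found in 5 of 10 RPE, 4 of 6 endothelial, 3 of 6 melanocyte and 4 of 4 blood markers. Blood sums were 571, 728 and 639.9 CPM with ctrl sh and 312, 390.2 and 401 with *Lrp2* sh2, mostly *Hbb-bs*. Endothelial sums were 2163, 2193 and 2086 and 1569.5, 1611 and 1417 CPM, mostly *Vwf*, and melanocyte sums 5577, 5418 and 5582 and 5063, 4346 and 3963 CPM, mostly *Dct*. The rod marker *Cnga1* was at 0 in uninjected library 3 and *Lrp2* sh1 library 2. The part of these cells in the result was not tested.

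Of 136 other genes of the system, 8 rose and 24 fell with *Lrp2* sh2 (8.59% and 9.48% of all genes). Other hydrolases had 3 of 31 rising (*Ctss* 0.66) and 5 falling (*Idua*, of heparan and dermatan sulfate breakdown, -0.77). Other membrane proteins had 2 of 26 rising (*Mcoln2* 2.44) and 5 falling, among them the lipid transporter *Abca2* (-1.02 ± 0.08), with 228, 226 and 252 CPM with ctrl sh and 125, 109 and 111 with *Lrp2* sh2. Other pump genes had 1 of 17 rising (*Atp6v0a4* 1.45) and 3 falling (*Atp6v0e* -0.35). Delivery genes had *Igf2r* rising (0.50) and 3 of 20 falling (*Sort1* -0.52). Of the TFEB relatives and mTORC1 controls 3 of 20 fell (*Mitf* -0.52), and of the autophagy genes 1 of 22 rose (*Cybb* 0.54) and 5 fell (*Gabarapl1* -0.65).

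The calls of *Gaa*, *Smpd1*, *Psap*, *Ctsf*, *Naglu*, *Gusb* and *Ppt1* were made in all 6 fits without 1 library. With ctrl sh library 1 left out, 11 genes passed, no longer among them *Scarb2* (0.24) and *Asah1* (0.21). With ctrl sh library 2 left out, 12 genes passed, no longer among them *Tpp1* (0.27) and *Asah1* (0.27), with *Ctsh* (0.45) added. With ctrl sh library 3 left out, 10 genes passed, no longer among them *Atp6v1h* (-0.28), *Scarb2* (0.31) and *Asah1* (0.24). With *Lrp2* sh2 library 1 left out, 10 genes passed, no longer among them *Atp6v1h* (-0.31), *Scarb2* (0.25) and *Tpp1* (0.33). With *Lrp2* sh2 library 2 left out, 9 genes passed, no longer among them *Atp6v1h* (-0.35), *Scarb2* (0.30), *Asah1* (0.25) and *Atp6v0a1* (-0.38). With *Lrp2* sh2 library 3 left out, 10 genes passed, no longer among them *Tpp1* (0.27), *Lamp1* (0.26) and *Asah1* (0.19). With sex as a term, *Tpp1* (0.21), *Lamp1* (0.23) and *Asah1* (0.17) no longer passed, and *Ctsh* (0.50) and *Grn* (0.28) did.

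The hairpins share their target and were compared with each other, which tests whether their effects on lysosome genes differ. *Lrp2* sh2 stood below *Lrp2* sh1 for all 4 proton pump subunits among the 36 genes, for *Psap* and for *Gaa*. Of the 36 genes, 14 were lower with *Lrp2* sh2, where 12.3% of the 17975 genes tested were, and 5 were higher, where 10.2% of all genes were. *Gaa* alone passed the threshold of the study, as 5.13% of all genes did. The median log2FC was -0.14 for the 36 genes and 0.01 for all genes.

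All 4 pump subunits were lower with *Lrp2* sh2: *Atp6v1h* had a log2FC of -0.78 ± 0.07, *Atp6v0a1* of -0.59 ± 0.06, *Atp6v1a* of -0.51 ± 0.06 and *Atp6v0d1* of -0.26 ± 0.06. For *Atp6v1h* the adjusted *P* was 5.6e-05, and for *Atp6v1a* 0.000167. The pump sum was 532, 544 and 558 CPM with *Lrp2* sh2, below every *Lrp2* sh1 library. *Gaa* had the largest difference of the 36 (log2FC -1.50 ± 0.07, adjusted *P* = 1.7e-06), followed by *Psap* (-0.82 ± 0.09, adjusted *P* = 0.000166). *Psap* had 1540.3, 1667 and 1614 CPM with *Lrp2* sh1. Also lower were *Smpd1* (-0.63, with 144, 154 and 149 CPM in the *Lrp2* sh1 libraries), *Naglu* (-0.53, with 62.5, 64.1 and 70.6 CPM) and *Ctsd* (-0.52). *Ctsf* (-0.39), *Glb1* (-0.38), *Lamp2* (-0.26), *Npc1* (-0.25) and *Scarb2* (-0.22) completed the 14. Higher with *Lrp2* sh2 were *Gusb* (0.56 ± 0.08, with 45.5, 44.6 and 52.7 CPM in the *Lrp2* sh1 libraries), *Ppt1* (0.37 ± 0.06, with 88.9, 86.2 and 82.4 CPM), *Ctsh* (0.31), *Asah1* (0.21) and *Man2b1* (0.19). No group overlapped for any of these 19 genes. The 17 other genes had log2FC from -0.23 (*Sgsh*) to 0.24 (*Grn*). *Grn* was called higher by DESeq2 (0.23), without the filter on low counts (0.23) and in the fit of all 18 libraries (0.23). The stricter filter added *Grn* (0.25) and *Ctsa* (0.23), and DESeq2 did not call *Asah1* (0.20) or *Man2b1* (0.18).

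Marker lists differed between the hairpins too. Higher with *Lrp2* sh2 were 9 of 14 macrophage, 7 of 8 rod and 1 of 6 fibroblast markers. The remaining rod marker, *Rom1*, had -0.81 ± 0.31 and did not pass. Lower were 5 of 10 RPE, 5 of 6 endothelial and 2 of 4 blood markers, with no melanocyte marker past the test. The part of these cells in the result was not tested. The fit lacking *Lrp2* sh1 library 1 had 14 genes, no longer among them *Scarb2* (-0.19), *Asah1* (0.25), *Man2b1* (0.16), *Ctsh* (0.33) and *Npc1* (-0.27). The fit lacking *Lrp2* sh1 library 2 had 15 genes, no longer among them *Asah1* (0.20), *Man2b1* (0.18), *Ctsh* (0.22) and *Npc1* (-0.28). The fit lacking *Lrp2* sh1 library 3 had 17 genes, no longer among them *Scarb2* (-0.23), *Asah1* (0.18) and *Npc1* (-0.21), with *Grn* (0.30) added. The fit lacking *Lrp2* sh2 library 1 had 18 genes, no longer among them *Man2b1* (0.17), *Ctsh* (0.23) and *Npc1* (-0.29), with *Ctsz* (-0.24) and *Hexa* (-0.31) added. The fit lacking *Lrp2* sh2 library 2 had 15 genes, no longer among them *Scarb2* (-0.22), *Asah1* (0.23), *Man2b1* (0.21), *Atp6v0d1* (-0.22) and *Npc1* (-0.30), with *Ctsa* (0.30) added. The fit lacking *Lrp2* sh2 library 3 had 16 genes, no longer among them *Scarb2* (-0.19), *Asah1* (0.17), *Man2b1* (0.19), *Ctsh* (0.32) and *Npc1* (-0.17), with *Grn* (0.29) and *Npc2* (-0.24) added. In the fit with sex as a term, 14 genes passed, no longer among them *Scarb2* (-0.22), *Npc1* (-0.25), *Atp6v0d1* (-0.27), *Ctsf* (-0.30), *Asah1* (0.14) and *Man2b1* (0.22), and with *Grn* (0.32) added.

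The control vectors were compared with uninjected eyes, with the uninjected libraries shared by both comparisons. No group was injected without a vector, so the effects of vector and injection cannot be told apart. With GFP, edgeR called none of the 36 genes, where 0.662% of the 17837 genes tested rose and 1.82% fell, and 1.41% passed the threshold of the study. At an unadjusted *P* under 0.05 it had 8 of the 36 (19.8% of all genes), and DESeq2 called *Man2b1* higher (0.32) and *Gla* lower (-0.60), where it called 1.32% of all genes higher and 3.06% lower. The median log2FC was 0.07, and values ran from -0.62 (*Gla*) to 0.31 (*Man2b1*). Without uninjected library 1, *Psap* (-0.56) and *Npc2* (-0.41) were called lower, and without GFP library 3, *Gla* (-0.76) was. In the fit of all 18 libraries with sex as a term, *Lamp1* (0.34), *Man2b1* (0.30) and *Asah1* (0.28) were called higher and *Gla* (-0.57) lower, and without that term also *Scarb2* (0.22) and *Grn* (0.28) higher. The RPE markers fell in 5 of 10 with GFP, against 1 of 14 macrophage markers (*Csf1r*) falling and 1 of 7 rod markers tested (*Nrl*) rising. At an unadjusted *P* under 0.05, edgeR had 6 RPE, all 7 rod, 3 macrophage, 4 fibroblast, 2 endothelial and 1 blood marker and no melanocyte one. Of these, the fibroblast markers were higher, as were the rod markers except *Rom1* (-0.88). Those of RPE, macrophages, endothelium and blood were lower. Of the 135 other genes of the system only *Igf2r* passed (0.45).

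With ctrl sh, 7 of the 36 genes rose against uninjected eyes, where 3.13% of the 17822 genes tested rose, and 0 fell, where 3.37% of all genes fell. At an unadjusted *P* under 0.05 edgeR had 15 in either direction (25.7% of all genes), and DESeq2 called 10 up (4.38% of all genes) and 0 down (3.91%). *Ctsd*, past the threshold of the study as 2.39% of all genes were, had 250.3, 473 and 476 CPM in uninjected and 1091, 982 and 1112 in ctrl sh libraries (log2FC 1.40 ± 0.22, adjusted *P* = 0.0134). *Gaa* went from 199.5, 238 and 207 CPM to 401, 364 and 416 (log2FC 0.87 ± 0.10, adjusted *P* = 0.00494). For both, every ctrl sh library was far above every uninjected library, so the ctrl sh level from which the *Lrp2* hairpins are measured differs from that of uninjected eyes. *Man2b1*, which trims mannose, rose by 0.65 ± 0.08, *Naglu* by 0.46 ± 0.10, *Atp6v1h* by 0.45 ± 0.09, *Asah1* by 0.34 ± 0.07 and *Grn* by 0.29 ± 0.07. The uninjected libraries had 38.3, 49.2 and 43.7 CPM of *Naglu* and 54.9, 61.4 and 63.01 of *Atp6v1h*. The median log2FC was 0.20. Of the macrophage markers 3 of 14 fell (*Csf1r*, *Ptprc*, *Lyz2*), and no RPE, rod, fibroblast, endothelial, melanocyte or blood marker passed. At an unadjusted *P* under 0.05, edgeR had 5 RPE and 2 endothelial markers, which were lower. It also had 4 fibroblast markers, which were higher except *Pdgfra* (-0.29). Of the 136 other genes of the system 8 rose and 1 fell, with *Abca2* the most (1.14 ± 0.09). Leaving out uninjected library 1 gave 4 genes, no longer among them *Atp6v1h* (0.40), *Asah1* (0.31) and *Grn* (0.29). Leaving out uninjected library 2 gave 4 genes, no longer among them *Atp6v1h* (0.48), *Asah1* (0.34) and *Grn* (0.31). Leaving out uninjected library 3 gave 3 genes, no longer among them *Atp6v1h* (0.50), *Asah1* (0.38), *Naglu* (0.47) and *Grn* (0.28). Leaving out ctrl sh library 1 gave 3 genes, no longer among them *Atp6v1h* (0.48), *Asah1* (0.37), *Naglu* (0.44) and *Grn* (0.30). Leaving out ctrl sh library 2 gave 2 genes, no longer among them *Atp6v1h* (0.52), *Ctsd* (1.46), *Asah1* (0.32), *Naglu* (0.48) and *Grn* (0.28). Leaving out ctrl sh library 3 gave 2 genes, no longer among them *Atp6v1h* (0.38), *Ctsd* (1.37), *Asah1* (0.34), *Naglu* (0.48) and *Grn* (0.29). The calls of *Gaa* and *Man2b1* were made in all 6 of these fits. With sex as a term all 7 calls stayed, and *Atp6v1a* (0.57), *Smpd1* (0.51), *Lamp1* (0.39) and *Lamp2* (0.25) were added.

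**Figure D3:**
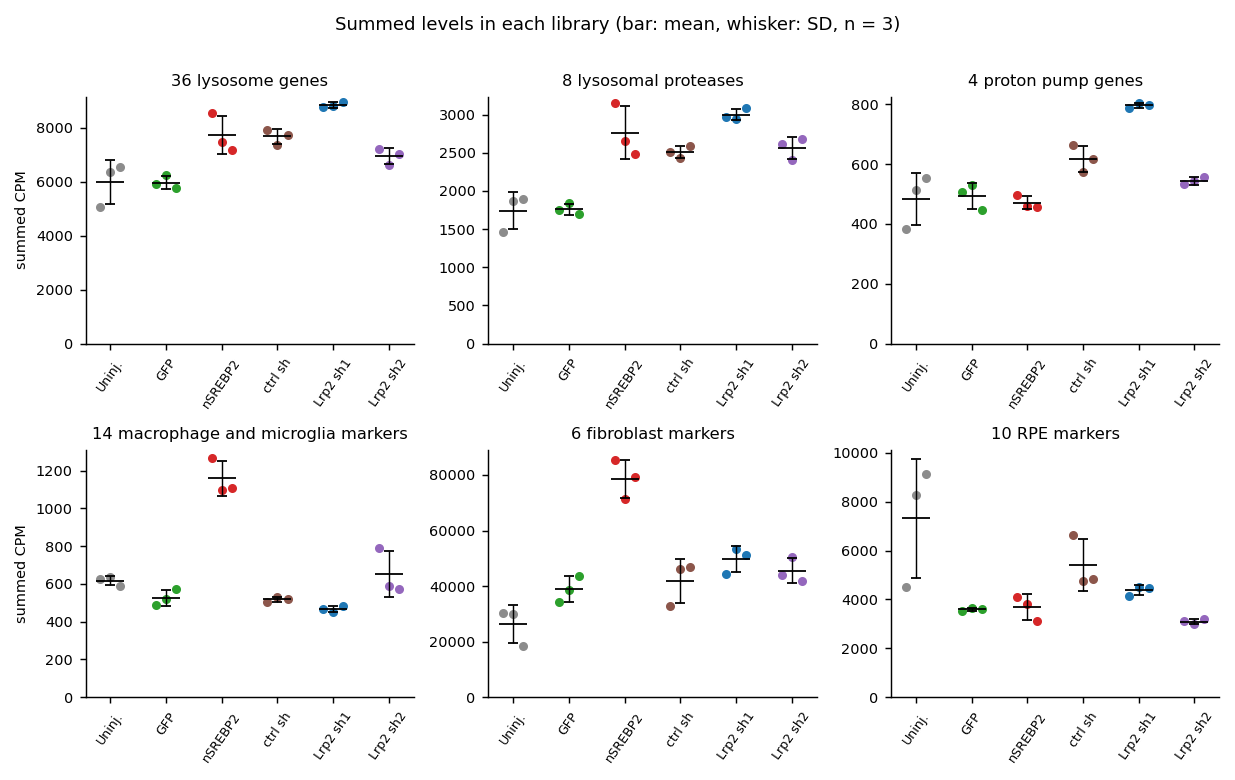
Summed CPM (y axis, from 0) of all 36 lysosome genes, of 2 of their roles and of 3 lists of cell type markers in each library, 3 points a group, with the mean (bar) and SD (whisker). The pump sum is highest in the 3 Lrp2 sh1 libraries, and the macrophage and fibroblast sums are highest in the 3 nSREBP2 libraries.

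Over the 3 comparisons of the study, 27 of the 36 genes passed in at least 1, and 9 in at least 2, where 32.4% and 10.1% of the 17192 genes tested in all 3 did. *Scarb2* was the only one of the 36 that passed in all 3 with 1 direction, as 1.16% of those genes did (0.47 with nSREBP2, 0.52 with *Lrp2* sh1, 0.30 with *Lrp2* sh2), though its call with *Lrp2* sh2 was lost without ctrl sh library 1 (0.24) or 3 (0.31) or *Lrp2* sh2 library 1 (0.25) or 2 (0.30). Side by side, *Gusb* had 0.54, -0.07 and 0.49, *Smpd1* -0.53, -0.27 and -0.90, and *Ctsd* 0.91, 0.48 and -0.04. *Psap* had 0.43, 0.17 and -0.65, *Naglu* 0.41, 0.11 and -0.41, *Gaa* -0.02, 0.34 and -1.16, *Atp6v1h* 0.00, 0.43 and -0.35, and *Tpp1* -0.21, 0.32 and 0.33. The 2 hairpin comparisons share ctrl sh, and whether nSREBP2 differs from a hairpin was not tested. The 9 genes that passed in none were *Cln3*, *Glb1*, *Lamp2*, *Man2b1*, *Mcoln1*, the sialidase *Neu1*, the sulfamidase *Sgsh*, *Tfe3* and *Tfeb*.

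Promoters were read from RefSeq sequence of build GRCm38.p6, from 250 bases before to 50 after each gene's start, for the 31 genes with an entry. The promoter set used here had no entry for *Npc1*, *Ctsb*, *Ctsh*, *Asah1* and *Atp6v1h*, which does not mean that RefSeq lacks these genes. The hexamer CACGTG, searched on both strands, was in 14 of the 31 promoters (45.2%), against 8.09% of 27025 genes and 7.15% of all 32851 windows. The longer TCACGTGA, which contains CACGTG and reads the same on both strands, was in 7 (22.6%), against 1.12% of genes and 0.974% of windows. These 7 were *Cln3*, *Mcoln1*, *Ctsa*, *Ctsd*, *Gla*, *Atp6v0d1* and *Atp6v1a*. The sterol element TCACNCCAC, on both strands, was in 1 (*Ctsf*, 3.23%), against 1.44% of genes and 1.24% of windows. Of the 13 genes with a window that rose with nSREBP2, 5 held CACGTG and 3 TCACGTGA, against 9 and 4 of the 17 that did not pass. With *Lrp2* sh1, 4 of 6 that rose held CACGTG and 3 TCACGTGA, against 10 and 4 of the 25 that did not pass. With *Lrp2* sh2, CACGTG was in 1 of 5 that rose, 3 of 6 that fell and 10 of the 20 others, and all 7 genes with TCACGTGA were among those 20. A match is a description, not a site or a cause, and no match says only that these letters are not in this window.

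Windows around TCACGTGA are printed for the 3 genes that hold it and rose with *Lrp2* sh1, with the motif in capitals, 5′ to 3′ on the strand of the gene. The *Ctsd* window lies at chr7:142387893-142387952 (minus strand), that of *Atp6v0d1* at chr8:105566035-105566094 (minus strand) and that of *Atp6v1a* at chr16:44139358-44139417 (minus strand). The motif begins 99, 4 and 132 bases before the RefSeq start of *Ctsd*, *Atp6v0d1* and *Atp6v1a*. By the outermost GENCODE start, the windows of *Ctsd*, *Atp6v1a*, *Ctsa* and *Cln3* lie inside the gene. The *Mcoln1* window spans that start (chr8:3500457), and its motif lies inside the gene.
Ctsd: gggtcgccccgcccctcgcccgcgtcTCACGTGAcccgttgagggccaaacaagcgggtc
Atp6v0d1: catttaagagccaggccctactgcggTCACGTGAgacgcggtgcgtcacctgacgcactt
Atp6v1a: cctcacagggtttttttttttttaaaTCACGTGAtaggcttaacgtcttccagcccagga
The other 4 genes with the motif are shown for comparison, since *Gla* and *Ctsa* rose with nSREBP2 while *Mcoln1* and *Cln3* passed in no comparison. The *Gla* window lies at chrX:134601167-134601226 (minus strand), that of *Ctsa* at chr2:164833734-164833793 (plus strand), that of *Mcoln1* at chr8:3500447-3500506 (plus strand) and that of *Cln3* at chr7:126583325-126583384 (minus strand). *Gla* and *Ctsa* each hold the motif in 2 places, of which 1 is in capitals.
Gla: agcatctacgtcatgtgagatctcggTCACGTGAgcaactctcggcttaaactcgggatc
Ctsa: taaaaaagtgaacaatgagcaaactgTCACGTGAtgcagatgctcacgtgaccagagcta
Mcoln1: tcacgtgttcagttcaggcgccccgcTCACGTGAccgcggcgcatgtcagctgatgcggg
Cln3: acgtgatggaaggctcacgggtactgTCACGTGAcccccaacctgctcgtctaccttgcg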

How the data were processed

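Per the submitters' processing notes, the authors aligned the reads to GRCm38 with STAR, and the deposited values are integer read counts for each gene, not normalized. The study names a directional library kit and default settings of STAR. Neither the annotation nor the strand rule of the counting is stated, so counts are uncertain where exons of different genes overlap. Positions and overlaps are from GENCODE for GRCm38. The quasi-likelihood test of edgeR 4.0.16 (R 4.3.3), after filterByExpr and TMM scaling, was run on the 6 libraries of each comparison, with *P* adjusted by Benjamini and Hochberg over all genes tested, and tested on simulated data. Alternatives were DESeq2 1.42.0, edgeR with the size factors of DESeq2, no low-count filter, a stricter filter (10 counts or more in each library), the replicate number as a block, all 18 libraries in 1 fit without and with sex as a term, the threshold of the study, and leaving out each library. Zero counts leave room for up to 3 counts (0.219 to 0.336 CPM), by counting error alone. Replicates differed by more than counting noise (chi-square per degree of freedom at least 3.30). Values in every library are given for genes past the test in at least 2 of the 3 comparisons of the study and for the 3 largest rises and 3 largest falls in each. Genes named from the other lists are mostly those past the threshold of the study or with the largest rise or fall in a list, and not all such genes are named. The members and lists were chosen with earlier results of these data known. Pairs of genes named for their overlap, and the markers named singly, were chosen after their values were seen.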

Additional observations from a re-analysis of the deposited data

Results flagged for a closer look

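The effects of the *Lrp2* hairpins, each against ctrl sh, were compared by the direct edgeR test of *Lrp2* sh2 against *Lrp2* sh1, and 19 lysosome genes differed between them, 14 lower with *Lrp2* sh2 (12.3% of all genes) and 5 higher (10.2%). Lower with *Lrp2* sh2 on the log2 scale were *Gaa* (-1.50), *Psap* (-0.82), *Atp6v1h* (-0.78), *Smpd1* (-0.63), *Atp6v0a1* (-0.59), *Naglu* (-0.53), *Ctsd* (-0.52), *Atp6v1a* (-0.51), *Ctsf* (-0.39), *Glb1* (-0.38), *Lamp2* (-0.26), *Atp6v0d1* (-0.26), *Npc1* (-0.25) and *Scarb2* (-0.22). Higher were *Man2b1* (0.19), *Asah1* (0.21), *Ctsh* (0.31), *Ppt1* (0.37) and *Gusb* (0.56). DESeq2 did not call *Asah1* (0.20) or *Man2b1* (0.18), nor did edgeR without the filter on low counts (0.20 and 0.18). Of these differences, 13 passed in every fit without 1 library, and 13 in the fit with sex as a term.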

How the results depend on the processing

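Over 63 calls of single genes and 819 values under alternatives, none changed direction, 677 stayed past the test and 142 did not. These values leave out the threshold of the study, at which 3 of the 63 calls stayed. DESeq2's size factors moved the median of all genes by at most 0.00572 (log2). Counts below are of all genes past the test in a fit, added ones too. Beside 17 genes called with nSREBP2, the replicate block gave 15, the fit with sex 10, the threshold of the study 0, and leaving out a library 11 to 18. Beside 7 with *Lrp2* sh1, the block gave 5, no filter on low counts 11 (9 up, 2 down), the fit with sex 4, the threshold of the study 0, and leaving out a library 3 to 10. Beside 13 with *Lrp2* sh2, the block gave 12, the threshold of the study 1, and leaving out a library 9 to 12. Beside 0 with GFP against uninjected eyes, the block gave 0, DESeq2 2 (1 up, 1 down), no filter 1, all 18 libraries 6, the fit with sex 4, and leaving out a library 0 to 2. Beside 7 with ctrl sh, the block gave 3, all 18 libraries 12, the fit with sex 11, the threshold of the study 1, and leaving out a library 2 to 4. Beside 19 between the hairpins, the block gave 16, the threshold of the study 1, and leaving out a library 14 to 18. The threshold of the study adds a demand on the size of change, and leaving out a library means fewer samples; for the others the cause was not tested. The labels do not say that replicate numbers pair the mice. Deviations from the group means of libraries with 1 number correlated across genes with *r* from -0.261 to 0.315. These values cannot decide on pairing, since genes are not independent and the deviations within a group depend on each other. With 3 libraries a group and 8921885 to 13696934 counts, a small change of a gene that varies between mice is not detectable.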

Other observations

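In the direct comparison of the hairpins, 45 of the 136 other genes of the lysosome system were lower with *Lrp2* sh2 and 7 higher, where 12.3% and 10.2% of all genes were, and the rest did not pass. Of other proton pump genes 7 of 17 were lower and none higher by edgeR, with *Atp6v1d* at -0.45 ± 0.08. Of these 17, 10 had an unadjusted *P* under 0.05 in edgeR (34.7% of all genes). Other hydrolases had 10 of 31 lower (*Aga* -0.97 ± 0.10) and *Ctss* higher (0.88 ± 0.20). Other membrane proteins had 9 of 26 lower, among them *Abca2* (-1.51 ± 0.09), with 294, 356 and 343 CPM with *Lrp2* sh1, and *Tmem192* (-1.16 ± 0.16), and 2 higher (*Slc15a3* 0.71, *Laptm5* 0.59). Delivery genes had 5 of 20 lower (*Sort1* -0.55) and *Ap1s1* higher (0.44). Relatives of TFEB and mTORC1 controls had 6 of 20 lower (*Lamtor2* -0.52) and *Rragc* higher (0.23). Autophagy genes had 8 of 22 lower (*Atg12* -0.85) and 2 higher (*Cybb* 0.55, *Map1lc3b* 0.19).

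In ctrl sh against uninjected eyes, the other genes that rose were 5 of 31 hydrolases, 2 of 25 membrane proteins (*Abca2* 1.14, *Ostm1* 0.79) and 1 of 20 delivery genes (*M6pr* 0.59), where 3.13% of all genes did, while *Cybb* fell (-0.57; 3.37% of all genes did).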
